A study of Mus musculus with 4 samples.

Results

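The 10 genes Olig1, Olig2, Pdgfra, Cspg4, Ptprz1, Vcan, Lhfpl3, Nkx2-2, Gpr17 and Zfp536 are marker and regulator genes of oligodendrocyte progenitor cells, among 21951 protein-coding genes of the mouse annotation (GENCODE M21, mm10). Binding was read from the peaks over each gene body and its 50 kb flanks. These regions held 74 of the 31909 peaks of Foxr2 p53LOF replicate 1, 84 of the 38580 peaks of replicate 2, 0 of the 308 peaks of V5 control replicate 1 and 0 of the 124 peaks of V5 control replicate 2.

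The peaks came from CUT&RUN, in which an antibody directs a nuclease to cut out the DNA around a bound protein. The antibody was against the V5 tag, and the cells of every library, in both groups, had been briefly cross-linked with formaldehyde beforehand. The Foxr2 p53LOF neurosphere line, of genotype FOXR2 P53LoF in C57BL/6J mice, was derived from a brain tumor made by in utero electroporation (IUE) of a piggyBac vector in which the CAG promoter drives V5-tagged FOXR2, together with CRISPR disruption of Trp53. FOXR2 is therefore driven by a general promoter and not by its own. The V5 control came from cell lines of genotype H3.3G34R, from another IUE tumor model of the same strain, which lacks the tag. Whether the 2 control replicates are of the same line is not stated. The labels give 2 replicates per group and do not say that they came from separate cultures, so the spread between replicates may be technical, and an effect of the line cannot be told apart from the tag. CUT&RUN gives no RNA level. The study also measured RNA of the line, by qRT-PCR for some of these genes and by RNA-seq, and those data were not analysed here.

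Oligodendrocyte progenitors are the dividing glial cells that give rise to the myelinating oligodendrocytes of the brain. The helix-loop-helix factors Olig1 and Olig2 specify them, the receptor Pdgfra carries the signal of their mitogen PDGF-A, and a chondroitin sulfate proteoglycan coat that includes Cspg4 (NG2) surrounds them. Foxr2 is a forkhead transcription factor that is activated in central nervous system neuroblastoma.

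All 10 genes had Foxr2 peaks in both replicates, and 74.7% of protein-coding genes had a stretch covered by peaks of both. The fold enrichment of a peak is the fragments at its summit over the background of the same library, each plus 1. Peaks are called at an own promoter when they reach within 1 kb of a protein-coding transcript start of the gene, at another promoter when they reach that of a neighbour, and distal otherwise. In replicate 1, the 74 peaks divided into 11 at own promoters, 5 at other promoters and 58 distal, with folds of 3.09 to 23.0 and a median of 5.30. In replicate 2, the 84 peaks divided into 11, 6 and 67, with folds of 2.96 to 26.6 and a median of 5.26. Most peaks were therefore distal and low, and the median fold over the whole list was 5.30 in replicate 1 and 4.93 in replicate 2.

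In these regions, a minimum fold of 6 removed more distal than own promoter peaks. It left 29 peaks in replicate 1 (9 at own promoters, 4 at other promoters, 16 distal) and 35 in replicate 2 (10, 4 and 21). That is 39.2% and 41.7% of the peaks in these regions, where the whole lists kept 42.5% and 39.0%. The whole lists were not divided into promoter and distal peaks, so the loss by class has no value beside it. Since 13 (replicate 1) or 18 (replicate 2) fragments suffice to exceed 6, counting error is wide near the minimum. With further filters on peaks from the study's methods (no overlap of 10 bp with a control peak, −log10 q above 6, length under 10000 bp) 28 and 34 peaks remained, the study's later step of intersecting with open chromatin not being run here, against 0 and 0 in the V5 control. The exact permutation test over the 4 libraries gave a two-sided p = 0.333, the smallest that 2 against 2 allows.

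**Figure D1:**
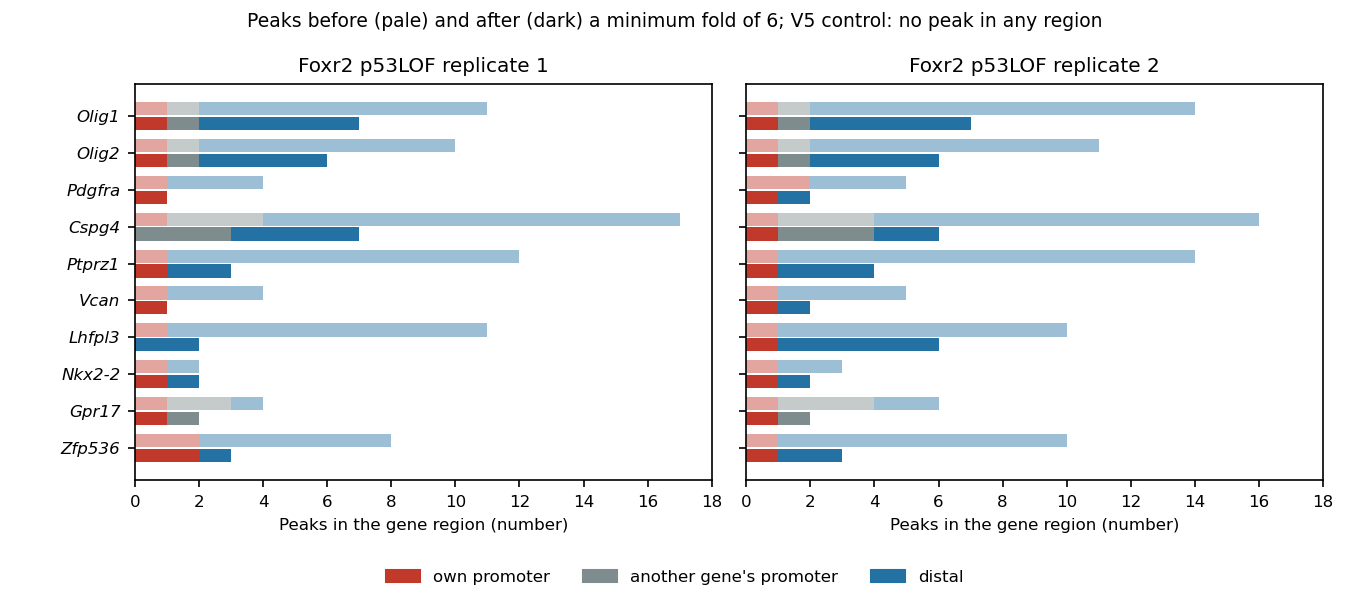
Number of Foxr2 p53LOF peaks in the region of each gene (x axis), before (pale bars) and after (dark bars) a minimum fold of 6, in each replicate and divided into own promoter, another gene's promoter and distal. Cspg4 has the most peaks, 17 in replicate 1 and 16 in replicate 2, of which 7 and 6 exceed a fold of 6; the overlapping regions of Olig1 and Olig2 share peaks, and the V5 control has none in any region.

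Stretches covered by a peak of both replicates were counted next, and those that passed all filters in both are called sites. Before filtering, 65 stretches lay in the regions (11 at own promoters, 6 at other promoters, 48 distal), and all 10 genes had a stretch in the region, against the 74.7% given above. All 10 genes had one at the own promoter, against 50.9% of protein-coding genes, and all 10 had a distal one, against 48.2%, that of Nkx2-2 being distal from its coding starts only. After filtering, 26 sites remained (8 at own promoters, 4 at other promoters, 14 distal), and all 10 genes kept at least 1 in the region, against 64.7% (7 genes at a minimum fold of 10, where Nkx2-2, Pdgfra and Zfp536 lost theirs). Own promoter sites remained at 7 genes, against 39.2% of protein-coding genes, and these were Olig1, Olig2, Pdgfra, Ptprz1, Vcan, Gpr17 and Zfp536. At a minimum fold of 10, 10 sites remained and only Vcan kept an own promoter site. No share over all protein-coding genes was counted at a minimum of 10, for the region or the own promoter. At the minimum of 6, distal sites remained at 7 genes, against 23.0%, and these were Olig1, Olig2, Cspg4, Ptprz1, Lhfpl3, Nkx2-2 and Zfp536. None of the 10 regions had a peak in either V5 control replicate, and 1.13% of protein-coding genes had one. These shares are set side by side without a test, and a longer region has more room for a site: those of the 10 genes were 102 to 630 kb long.

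Counted per length, the regions of the 10 genes held 11.6 sites per Mb (25 replicate 1 summits in 2.15 Mb), and the regions of all protein-coding genes held 6.73 per Mb. For distal sites alone, the densities were 6.52 per Mb (14 sites) and 2.05 per Mb. The Olig1 and Olig2 locus (8 sites, 6 of them distal) and Cspg4 (5 sites, 3 distal) carried these values. Without them, in a comparison added after seeing the data, the other 7 genes had 12 sites in 1.86 Mb, or 6.43 per Mb, and 5 distal sites, or 2.68 per Mb, near the values over all protein-coding genes. The distal sites also had higher median folds than the own promoter sites, an order that appeared only after the cut on fold. Before filtering, distal stretches had medians of 5.08 in replicate 1 and 7.56 in replicate 2, and own promoter stretches 7.95 and 9.86. Among the sites, the distal median was 9.94 in replicate 1 (range 6.19 to 17.7) and 15.8 in replicate 2 (6.24 to 24.3). The own promoter sites had medians of 8.17 (6.19 to 23.0) and 9.53 (8.21 to 26.6), and the 4 sites at other promoters 14.4 (8.39 to 17.7) and 13.5 (6.24 to 18.7). Over all 4136 distal sites of the genome the medians were 8.39 and 9.86, and over all 7807 sites at any promoter 10.2 and 11.8. Some of the 14 distal sites share a peak, and these differences were not tested.

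**Figure D2:**
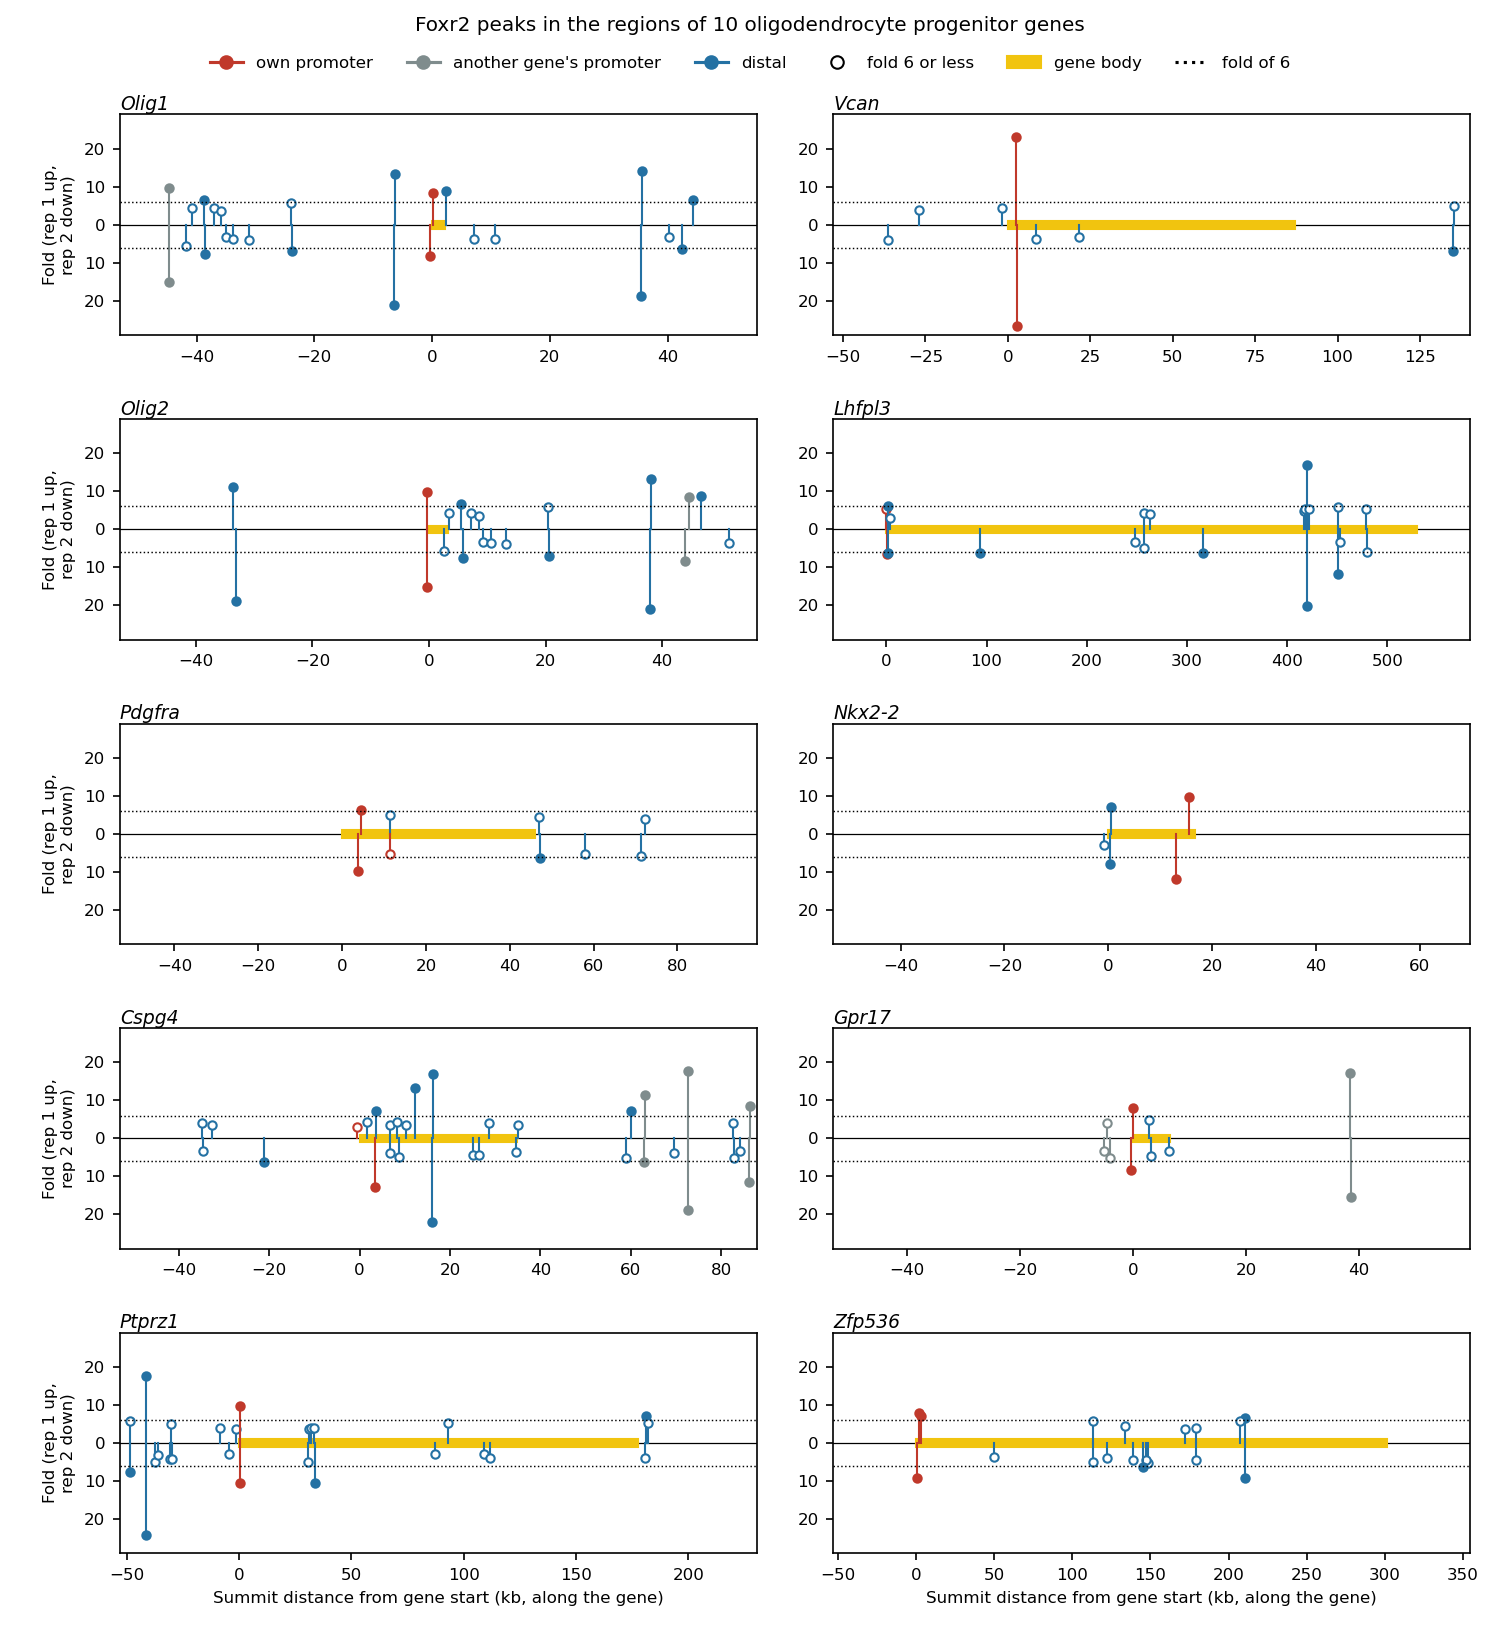
Peaks in the region of each gene: distance of the summit from the gene start in kb along the gene (x axis) against fold enrichment (y axis, replicate 1 upwards and replicate 2 downwards). Filled points exceed a fold of 6 (dotted line), yellow bars are gene bodies and colours tell own promoter, other promoter and distal peaks apart; the tall pairs include those in Vcan, on both sides of Olig1, inside Cspg4, upstream of Ptprz1, deep within Lhfpl3, and at the neighbours Imp3 (17.7 and 18.7, Cspg4 panel) and Sft2d3 (17.2 and 15.4, Gpr17 panel).

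Olig2, the factor that specifies the lineage, and Olig1, its neighbour with a role in maturation and myelination, lie in the same orientation on chromosome 16 (Olig2 at chr16:91225457-91228677, Olig1 at chr16:91269772-91271933, both on the plus strand). Olig1 had 7 sites in its region, where 99.1% of protein-coding genes had as many or fewer, and Olig2 had 6, where 98.0% did. The median protein-coding gene had 1 site, as had Pdgfra, Vcan and Nkx2-2 (56.7% with as many or fewer), while Lhfpl3, Ptprz1 and Gpr17 had 2 (73.7%) and Zfp536 had 3 (85.2%). Because the regions of Olig1 and Olig2 overlap, 5 of their sites are the same stretches. The Olig2 promoter site (chr16:91222032-91226426) had a fold of 9.72 in replicate 1 (21 fragments, 95% interval 6.19 to 14.6) and of 15.1 in replicate 2 (45 fragments, 11.1 to 20.1). Its summits lay 334 and 348 bp before the Olig2 start. The Olig1 promoter site (chr16:91268490-91270696) had folds of 8.39 (18 fragments) and 8.21 (24 fragments), with one summit 206 bp into the gene, in its coding exon, and the other 335 bp before the start.

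The strongest sites of this locus were between the genes and beyond them. The site 6.29 kb before Olig1, 38.0 kb past the Olig2 start (chr16:91261809-91267045), had a fold of 13.3 (29 fragments, 9.02 to 18.8) in replicate 1 and of 21.0 (63 fragments, 16.2 to 26.8) in replicate 2. The site 35.7 kb past the Olig1 start (chr16:91302659-91306798) had folds of 14.1 and 18.7, and that 33.6 kb before Olig2 (chr16:91191144-91193491) folds of 11.0 and 18.7. All 3 exceeded both promoters in fold in both replicates, although the intervals overlapped those of the Olig2 promoter. The intervals also overlapped that of the Olig1 promoter in replicate 1 (5.16 to 13.0), but not in replicate 2 (5.38 to 12.1). By the lower of their folds the 3 sites ranked at or above 81.1%, 84.2% and 69.7% of all sites. The weaker ones lay 5.52 kb past the Olig2 start (6.63 and 7.56), 2.41 kb past the Olig1 start (8.84 and 8.21, where replicate 2 had 1 long peak over this stretch and the promoter) and 44.4 kb past the Olig1 start (6.63 and 6.24).

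The sequences at the summits of this locus are shown because the promoter and the strong intergenic sites can be compared in them. Each is the replicate 1 summit with 100 bp on either side, plus strand of GRCm38.p6 (mm10), with capitals for matches to any of 9 short words on either strand: CCGGAAG and AGGAAG (ETS cores), ACAATG and ACAAAG (SOX), CAGATG and CATATG (E-boxes of the OLIG type), TGTTTAC (forkhead), TTGGCA (the NFI core) and GGGCGG (SP and KLF). They are the Olig2 promoter (chr16:91225023-91225223), the site before Olig2 (chr16:91191785-91191985), the site before Olig1 (chr16:91263381-91263581) and the site past Olig1 (chr16:91305322-91305522).
Olig2 promoter: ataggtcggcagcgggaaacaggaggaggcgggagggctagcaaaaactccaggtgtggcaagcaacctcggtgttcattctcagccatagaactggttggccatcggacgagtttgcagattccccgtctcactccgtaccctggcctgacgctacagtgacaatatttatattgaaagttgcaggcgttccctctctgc
Olig2 upstream: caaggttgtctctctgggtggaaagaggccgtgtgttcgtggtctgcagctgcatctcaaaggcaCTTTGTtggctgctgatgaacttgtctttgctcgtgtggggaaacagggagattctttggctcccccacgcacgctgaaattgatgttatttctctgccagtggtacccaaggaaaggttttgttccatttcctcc
Olig1 upstream: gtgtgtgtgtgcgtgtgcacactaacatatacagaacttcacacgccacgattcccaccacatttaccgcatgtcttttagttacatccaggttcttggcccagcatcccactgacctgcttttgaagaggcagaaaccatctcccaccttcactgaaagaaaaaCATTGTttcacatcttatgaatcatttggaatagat
Olig1 downstream: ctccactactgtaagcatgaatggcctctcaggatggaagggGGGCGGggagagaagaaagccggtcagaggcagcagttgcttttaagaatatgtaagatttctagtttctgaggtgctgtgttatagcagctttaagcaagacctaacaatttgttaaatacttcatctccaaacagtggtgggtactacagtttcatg

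The Olig2 promoter window held none of the words, the window before Olig2 held ACAAAG in reverse, that before Olig1 held ACAATG in reverse, and that past Olig1 held GGGCGG. A match is a description of letters, not a binding site, and the absence of one says only that these letters are not in this window.

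Nkx2-2 (chr2:147177546-147194243, minus strand), a homeobox factor of oligodendrocyte differentiation, had its strongest peaks over its coding starts, with folds of 9.72 and 11.8 at summits in an intron, 7353 and 4853 bp from the nearest coding start. These peaks were 12561 and 13043 bp long, over the length limit of 10000 bp, so they do not count as a site. Its only site (chr2:147193151-147194315) had folds of 7.07 and 7.88, with summits 600 and 327 bp into the annotated gene, in an intron. That outermost start belongs to a noncoding transcript, and the nearest coding start is 7239 bp away in replicate 1, so it was classed as distal.

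Zfp536 (chr7:37472135-37773641, minus strand) encodes a zinc finger protein that restrains neuronal differentiation. It had a pair of own promoter sites, chr7:37769616-37771266 with folds of 7.07 and 9.20 and chr7:37771602-37774123 with folds of 7.95 and 9.20. Replicate 2 had 1 peak of 6060 bp over both, whose summit lay 634 bp into the gene, so its fold is the same measurement given for each. A weaker intronic site 210.3 kb past the start (chr7:37562708-37563462) had folds of 6.63 and 9.20. The sites of Nkx2-2 and Zfp536 were lower in both replicates than the 3 strong intergenic sites of Olig1 and Olig2. Their replicate 1 intervals reached below 6 (4.82 to 12.5 at the stronger Zfp536 promoter site).

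Pdgfra (chr5:75152292-75198215, plus strand), the PDGF-A receptor, had 1 site, and it was among the weakest of the 26. The site (chr5:75155995-75157041) had a fold of 6.19 in replicate 1 (13 fragments, 3.50 to 10.3) and of 9.86 in replicate 2 (29 fragments, 6.71 to 14.0). Its summits lay 4589 and 3842 bp past the outermost start but 48 and 235 bp from coding starts inside the gene, in an untranslated region, so it is a site at an internal start. Among the 8599 genes with an own promoter site, Pdgfra stood at or above 4.16% by its strongest site. Its distal stretches fell short in replicate 1, with folds of 4.86, 4.42 and 3.98 there and of 5.26, 6.24 and 5.91 in replicate 2.

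Gpr17 (chr18:31942997-31949636, minus strand), a G protein-coupled receptor that marks progenitors committed to differentiation, had an own promoter site (chr18:31948045-31951283) with folds of 7.95 (17 fragments) and 8.21 (24 fragments). Its summits lay 51 bp into the gene and 287 bp before it. The stronger site of the region was at the start of the neighbour Sft2d3, 38.5 kb away, with folds of 17.2 and 15.4. No distal site remained, the only distal stretch having folds of 4.86 and 4.60.

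Vcan (chr13:89655312-89742509, minus strand), which encodes the hyaluronan-binding proteoglycan versican, carried the strongest site of the 10 genes. The site (chr13:89738142-89743674) had a fold of 23.0 in replicate 1 (51 fragments, 17.2 to 30.1) and of 26.6 in replicate 2 (80 fragments, 21.2 to 33.0). It ranked at or above 96.7% of all sites, and at or above 94.8% of the genes with an own promoter site. The stretch covers the outermost start, but its summits lay 2526 and 2772 bp past that start in an intron, 414 and 660 bp from an internal coding start. The sites on chromosome 13 had median folds of 10.2 and 12.2, against 9.28 and 10.8 over all sites, whereas the unfiltered peaks there had medians of 4.86 and 4.27, against 5.30 and 4.93 over all peaks. Their part in the Vcan fold was not tested. No distal site remained at Vcan, whose distal stretches had replicate 1 folds of 4.86 and 4.42.

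Cspg4 (chr9:56865033-56899870, plus strand), the NG2 proteoglycan of the progenitor surface, had its sites within the gene and not at its start. The site 16.3 kb past the start (chr9:56879766-56882490) had a fold of 16.8 (37 fragments, 12.0 to 23.0) in replicate 1, and that at 12.2 kb (chr9:56876126-56879343) had 13.3 (29 fragments, 9.02 to 18.8). Replicate 2 had 1 peak of 6898 bp over both, with a fold of 22.0 (66 fragments, 17.1 to 27.9) and its summit at the former, 3905 bp from the replicate 1 summit of the latter. Another intronic site 3.72 kb past the start had folds of 7.07 and 12.8. At the promoter the stretch had a fold of 3.09 in replicate 1, and the 12.8 of replicate 2 belongs to that same intronic summit, 3361 bp past the start, so no own promoter site was counted. The other 3 sites of the region lay at the starts of Snx33 (11.5 and 6.24), Imp3 (17.7 and 18.7) and Snupn (8.39 and 11.5), and with them Cspg4 had 6 sites, as many as Olig2. Only the edge of the Snupn site reaches into the region, and both of its summits lie outside it.

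Ptprz1 (chr6:22875502-23052916, plus strand) encodes a receptor tyrosine phosphatase that carries chondroitin sulfate. Its strongest site was 41.4 kb before the gene, between protein-coding genes (chr6:22833293-22836452), with a fold of 17.7 in replicate 1 (39 fragments, 12.7 to 24.0) and of 24.3 in replicate 2 (73 fragments, 19.1 to 30.5). It had the highest folds of the 14 distal sites in both replicates and ranked at or above 96.5% of all distal sites. The promoter site (chr6:22874831-22878002) had folds of 9.72 and 10.5, with summits 213 and 261 bp into the gene. The replicate 1 intervals of these sites overlapped (6.19 to 14.6 at the promoter), whereas those of replicate 2 did not (7.25 to 14.8 at the promoter).

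Lhfpl3 (chr5:22746059-23275597, plus strand), a tetraspan membrane protein gene that marks progenitors in brain, had its strong site 419.6 kb into its long gene body, in an intron (chr5:23164323-23167277). The folds there were 16.8 (37 fragments, 12.0 to 23.0) and 20.0 (60 fragments, 15.4 to 25.7), and the site ranked at or above 95.7% of all distal sites. Its promoter stretch had folds of 5.30 and 6.57 and failed the minimum in replicate 1. A site 1.88 kb past the start (chr5:22747374-22748578) had folds of 6.19 and 6.24, just above the minimum.

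The windows at the strongest sites of these proteoglycan and membrane protein genes are given next, with the same scale and capitals. They are Vcan (chr13:89739883-89740083), the Cspg4 introns (chr9:56877140-56877340 and chr9:56881257-56881457), the site before Ptprz1 (chr6:22834004-22834204) and the Lhfpl3 intron (chr5:23165511-23165711).
Vcan: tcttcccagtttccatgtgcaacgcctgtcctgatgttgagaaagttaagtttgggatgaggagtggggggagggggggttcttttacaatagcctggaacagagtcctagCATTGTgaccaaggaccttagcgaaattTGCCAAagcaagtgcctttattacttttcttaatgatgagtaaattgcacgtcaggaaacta
Cspg4 at 12.2 kb: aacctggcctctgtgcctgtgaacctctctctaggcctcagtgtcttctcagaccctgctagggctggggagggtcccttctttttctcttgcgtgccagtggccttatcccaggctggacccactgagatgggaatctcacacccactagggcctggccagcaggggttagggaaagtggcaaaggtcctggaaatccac
Cspg4 at 16.3 kb: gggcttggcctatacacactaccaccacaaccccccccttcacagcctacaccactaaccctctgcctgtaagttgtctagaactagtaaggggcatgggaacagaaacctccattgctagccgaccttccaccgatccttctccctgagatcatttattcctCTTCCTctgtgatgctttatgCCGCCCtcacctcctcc
Ptprz1 upstream: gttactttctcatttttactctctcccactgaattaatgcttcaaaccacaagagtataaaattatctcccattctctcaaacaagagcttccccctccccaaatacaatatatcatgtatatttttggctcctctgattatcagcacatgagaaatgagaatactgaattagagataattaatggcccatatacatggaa
Lhfpl3 intron: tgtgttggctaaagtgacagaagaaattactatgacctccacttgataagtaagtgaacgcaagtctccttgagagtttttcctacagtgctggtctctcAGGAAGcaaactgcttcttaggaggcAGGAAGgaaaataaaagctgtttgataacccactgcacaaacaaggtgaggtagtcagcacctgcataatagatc

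The Ptprz1 window, at the strongest distal site, held none of the words and had the lowest GC content of the 26, 34.8%. The Vcan window held ACAATG and TTGGCA, both in reverse, the Lhfpl3 window held AGGAAG at 2 places, and the Cspg4 window at 16.3 kb held AGGAAG and GGGCGG, both in reverse. The median GC content of the windows was 54.5% over the 26 sites and 55.7% over all sites. For the 14 distal sites it was 49.0%, and over all distal sites 47.3%.

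The words were searched in these summit windows and not over the whole sites. The ETS core CCGGAAG was in 0 of the 26 windows and in 3.87% of all windows, TGTTTAC in 0 and in 2.10%, and CATATG in 0 and in 2.06%. ACAAAG was in 5 windows (19.2%, against 13.2% of all), ACAATG in 2 (7.69% against 6.41%) and TTGGCA in 3 (11.5% against 7.73%). CAGATG was in 2 (7.69% against 10.1%) and GGGCGG in 6 (23.1% against 25.9%). By class, GGGCGG was in 3 of the 12 windows at promoters (25% against 34.9%) and 3 of the 14 distal ones (21.4% against 8.82%). AGGAAG, a word added after the sequences had been seen, was in 11 (42.3% against 23.0%), in 6 of the 12 windows at promoters (50% against 21.1%) and 5 of the 14 distal ones (35.7% against 26.6%). With so few windows these shares are descriptions, and none was tested.

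**Figure D3:**
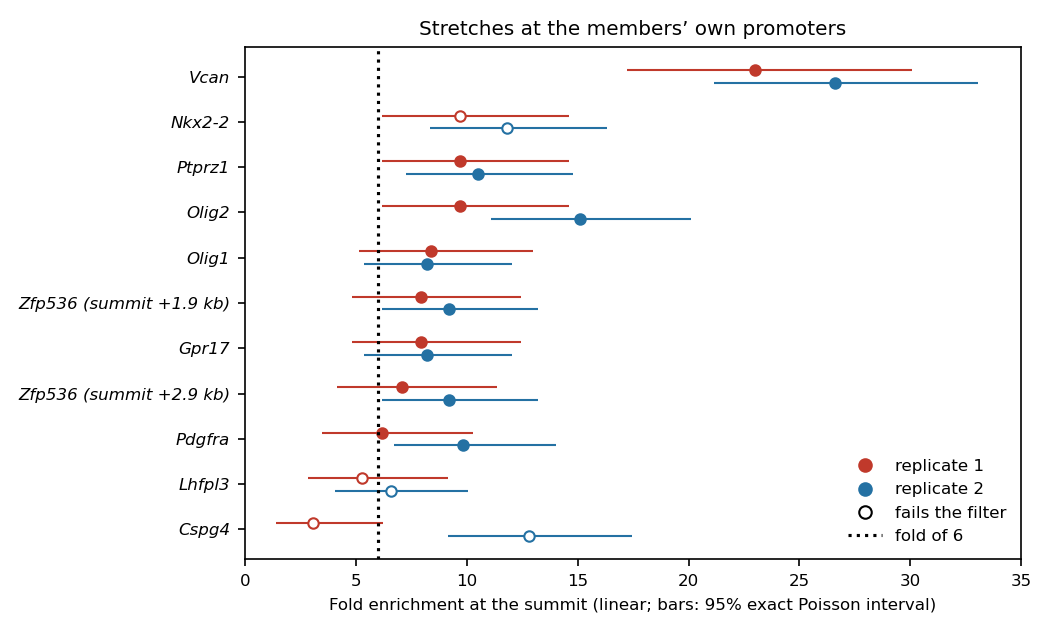
Fold enrichment (x axis, linear) of the 11 stretches at the own promoters in replicate 1 (red) and replicate 2 (blue), with bars for exact 95% Poisson intervals of the fragments at the summit and open circles for stretches that failed a filter. Vcan, at 23.0 and 26.6, stands above the others, of which the highest are Olig2 at 15.1 and Cspg4 at 12.8, both in replicate 2. The Cspg4 value of 12.8 belongs to an intronic summit 3361 bp past the start.

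The folds of the replicates were next compared at these sites. The fold was higher in replicate 2 at 21 of the 26 sites, as over all sites (medians 9.28 and 10.8), and the 95% counting intervals of the replicates overlapped at all 26. Spearman's rho between the replicates was 0.779 over the 26 sites, which include stretches that share a replicate 2 peak. The summits lay a median of 255.5 bp apart (12 to 3905 bp), and within 500 bp of each other at 18 sites. The replicate 1 summits were in introns at 10 sites, between protein-coding genes at 8, in untranslated regions at 5 and in coding exons at 3.

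**Figure D4:**
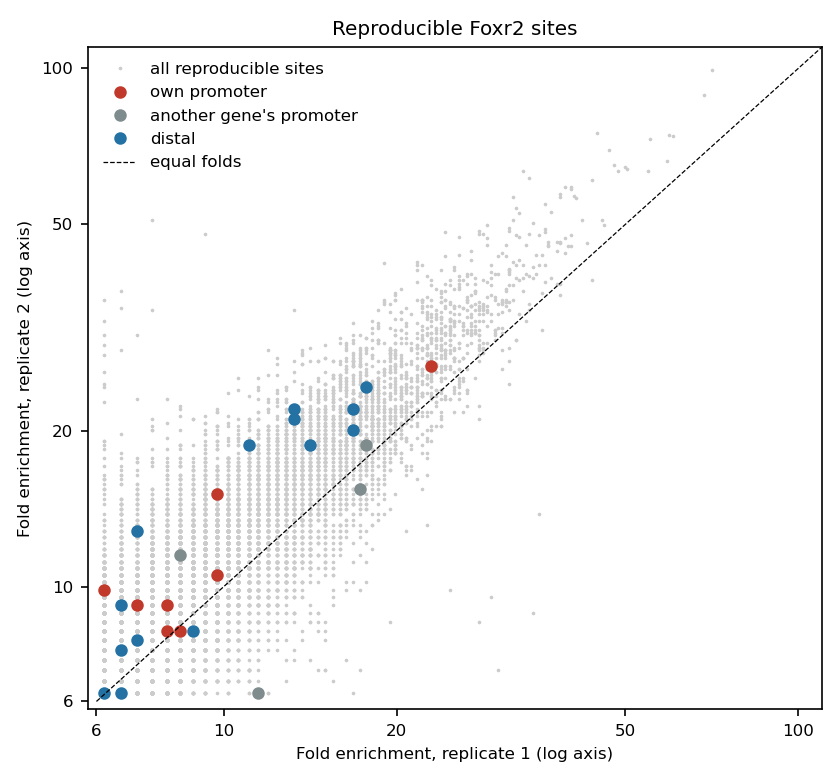
Fold enrichment in replicate 1 (x axis, log) against replicate 2 (y axis, log) of all reproducible sites (grey) and of the 26 sites in the regions of the 10 genes (colours), with the line of equal folds. The coloured sites lie within the grey cloud, with Vcan highest at 23.0 and 26.6.

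Of the 65 stretches, 39 were not kept as sites. In 18 the fold was 6 or less in replicate 1 only, in 2 in replicate 2 only, in 18 in both, and 1 (Nkx2-2) was lost by length. Just outside the minimum were stretches 48.4 kb before Ptprz1 (5.74 and 7.56), 20.3 kb past the Olig2 start (5.74 and 6.90), 450.6 kb into Lhfpl3 (5.74 and 11.8) and 207.3 kb into Zfp536 (5.74 and 9.20). Just inside were the Pdgfra site (6.19 and 9.86) and the Lhfpl3 site at 1.88 kb (6.19 and 6.24). A fold of 5.74 and one of 6.19 differ by 1 fragment in replicate 1.

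Among 24 further genes of the progenitor program, 18 had a site in the region (64.7% of all protein-coding genes), 15 a distal one (23.0%) and 10 one at the own promoter (39.2%). The own promoter count was thus close to the share over all genes, and no count was tested. The own promoter site of Sox10, the factor that drives the oligodendrocyte program together with Olig2, had folds of 14.1 and 18.1. The site of Bcan, which encodes the proteoglycan brevican, had folds of 11.0 and 20.0. Myt1, a zinc finger factor of progenitors, had 9.28 and 13.8, and Pdgfa, which encodes the ligand of Pdgfra, had 6.63 and 9.86. Tnr, which encodes the matrix protein tenascin-R, had 11 sites in its region and none at its promoter. Those without a site in the region included Nkx6-1, Enpp6, Pcdh15, Sema5a and Pdgfb.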

How the data were processed

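CUT&RUN with a V5 antibody had been done in 2 Foxr2 p53LOF and 2 V5 control replicates. Per the study's methods, the authors used the GenPipes pipeline, in which reads were trimmed (Trimmomatic 0.39), aligned to mm10 (BWA 0.7.17) and cleared of duplicates (Picard 2.26.6), and peaks were called in each library (MACS2 2.2.7.1). The deposited fold enrichment is a ratio made by MACS2 (fragments at the summit plus 1, over background plus 1). Also deposited were −log10 values of p and q from the same library and a score, equal to 10 times −log10 q. A fold ranks peaks within a library, since the lists hold no read total.

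Groups were taken from the sample labels. Background fragments were recovered in each library as the value that turns folds of at most 30 into whole fragments (100% whole within 0.02), which gave 1.26 and 2.04 in the Foxr2 p53LOF and 1.69 and 0.642 in the V5 control replicates. Exact 95% Poisson intervals follow from the fragments and cover counting error only. By criteria of the study's methods, peaks were removed that overlapped a control peak by 10 bp, had a −log10 q or fold of 6 or less, or were at least 10000 bp long. The study's further intersection with snATAC-seq peaks of the mouse model was not run here, so the sites may include ones outside its final set. Sites are stretches of 1 bp or more that filtered peaks of both libraries cover, and each takes the highest fold per replicate and is ranked by the lower. Percentages over all genes used the same rules.

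All 10 genes are named, and neighbours where a count turns on them. The genes and the lists (other progenitor genes, mature oligodendrocyte genes, markers of interneurons, astrocytes, microglia and endothelium) were chosen with earlier results of these data known. Scripts used Python 3.11.15, pandas 2.3.3 and scipy 1.17.1 and were tested on simulated data. Alternatives were other minimum folds and q values, flanks, promoter widths and overlaps, no control or length filter, and leaving out each replicate. The alternatives on summits near a start, on the outermost start and on no filter at all, and the word AGGAAG, were chosen after seeing the data.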

Additional observations from a re-analysis of the deposited data

How the results depend on the processing

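Over the alternatives, 66 of 75 values of the main counts stayed within 1.5 times the value in use. The tally includes alternatives without the control filter or without a V5 control replicate. Those could change neither the main counts nor the values per gene, because these regions held no control peak. The counts in use were 62 peaks over both Foxr2 p53LOF replicates, 26 sites, and 7 genes with an own promoter site. A minimum fold of 10 left 26 peaks, 10 sites, 7 genes with a site in the region (Nkx2-2, Pdgfra and Zfp536 out) and 1 gene (Vcan) with an own promoter site. No share over all protein-coding genes was counted at that minimum. A minimum −log10 q of 10 left 17 sites and 8 genes with one (Nkx2-2 and Pdgfra out), and a flank of 10 kb left 41 peaks. Without any filter, which was added after seeing the data, there were 158 peaks and 65 stretches. Leaving out 1 replicate in turn gave 28 to 62 peaks, the lower values being 34 without Foxr2 p53LOF replicate 1 and 28 without replicate 2. The number of genes with an own promoter site was 10 without any filter, 9 without Foxr2 p53LOF replicate 1 (Cspg4 and Lhfpl3 in), 8 with promoters of 2 kb (Lhfpl3 in), 8 without the length limit (with Nkx2-2), 7 by the outermost start only (Nkx2-2 in, Pdgfra out) and 6 when both summits of a site had to lie within 1 kb of the same start (Zfp536 out, whose summits lay near different starts). Of the values per gene, 105 stayed within 1.5 times and 35 moved. No paired analysis was possible because the one tested result is a single count per library, the labels give same-numbered Foxr2 p53LOF and V5 control libraries nothing in common but the number, and no model was fitted that could take a replicate block. Summits near the minimum rest on 13 to 18 fragments, so calls there depend on single fragments.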

Other observations

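Genes of mature oligodendrocytes also had Foxr2 sites. Of 15 such genes, 13 had a site in the region, 9 a distal one and 4 one at the own promoter (64.7%, 23.0% and 39.2% of all protein-coding genes). The own promoter folds were 10.6 and 15.8 at Cnp, which encodes a myelin phosphodiesterase, 8.84 and 12.5 at Mbp, which encodes myelin basic protein, 11.0 and 10.8 at Ugt8a, an enzyme of myelin lipid synthesis, and 7.07 and 8.21 at Cldn11, which encodes a tight junction protein of myelin. Nkx6-2 is in this list and in that of the further progenitor genes.

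The interneuron markers Gad1, Gad2, Dlx1, Dlx2, Dlx5 and Dlx6 had no site in their regions after filtering (64.7% of all protein-coding genes had one), although all 6 had a stretch there before it (74.7%). Of the 4 astrocyte markers, 3 had a site in the region (64.7% of all genes) and 2 (Gfap and Slc1a3) at the own promoter (39.2%). Of the 3 microglia markers, 3 had a site in the region and 1 (P2ry12) at the own promoter, and of the 3 endothelial markers, 2 had a site in the region and 0 at the own promoter. The same shares over all genes apply to these lists, which hold few genes and were described by counts, without a test.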
